A study of Homo sapiens with 16 samples.

Results

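The RNA levels of 38 genes of the amino acid and integrated stress response were followed in 293T cells after depletion of SETD2 or of hnRNP L. The 38 genes were taken by name from the deposited table of 58884 genes, and comprise regulators that act with or downstream of the transcription factor ATF4, enzymes of serine, one-carbon, proline and asparagine metabolism, transporters, and cytosolic aminoacyl-tRNA synthetases under their older symbols. All 38 are protein-coding, all 38 were found in the table, and all 38 passed the filter on low values. After SETD2 depletion none of the 38 passed the test, against 0.104% of all tested genes. After hnRNP L depletion 5 of them passed, 1 as higher, against 2.72% of all tested genes, and 4 as lower, against 8.48%. Among the 5 the amino acid transporter gene SLC38A2 fell the most, to a fold of 0.602. SESN2 had the largest difference between both depletions.

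The integrated stress response is a pathway in which stress-activated kinases phosphorylate the translation factor eIF2alpha, which lowers general protein synthesis while allowing the ATF4 mRNA to be translated. ATF4 then activates genes for amino acid synthesis, amino acid uptake and tRNA charging, along with genes that feed back on the response itself. Because ATF4 is controlled largely at translation, its mRNA level is a different quantity from the amount of ATF4 protein, and protein was not analysed here.

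293T is a human line derived from embryonic kidney that carries the SV40 large T antigen. Wild-type 293T cells, grown in serum-containing medium with added L-glutamine, received a scramble siRNA, an siRNA against SETD2 (the histone H3 lysine 36 methyltransferase) or an siRNA against hnRNP L (an RNA-binding splicing regulator) for 72 h, with 2 RNA-seq libraries per siRNA. Replicate numbers in the labels are 1 and 2, except for SETD2 siRNA, where they are 2 and 3. The study describes its sequencing replicates as biological, while the labels name no separate cultures, and the p-values measure the spread between these libraries.

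Levels are given as TPM, a measure of transcript abundance that corrects for transcript length and sums to 1000000 in each library. Read counts cannot be recovered from TPM, and the number of reads behind a given value is therefore unknown. The study lists the read pairs of each library, which were not used here. Mitochondrially encoded genes took 17.5% and 7.86% of the TPM with scramble siRNA, 6.73% and 6.70% with SETD2 siRNA, and 10.9% and 8.80% with hnRNP L siRNA. Of the 38 genes, 29 (76.3%) had a lower TPM in scramble library 1 than in scramble library 2, against 58.9% of all tested genes, and 19 (50%) did so after the TPM were rescaled without the mitochondrially encoded genes, against 35.3%. SETD2 was left at 36.5% of its scramble level after SETD2 siRNA, with 4.24 and 4.91 TPM against 13.4 and 11.7. HNRNPL was left at 6.75% after hnRNP L siRNA, with 25.0 and 28.8 TPM against 341 and 457. The 5 transcripts carried by HEK-derived lines that were checked (VIM, KRT8, KRT18, NEFM and ENO2) ranged from 17.1 to 941 TPM, and of 8 markers of other cell types 5 were under 1 TPM in every library, with PTPRC at 0 and ACTA2 the highest at 14.7 TPM.

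ATF4 binds, as a dimer with a C/EBP factor, a composite element whose core was searched here as TGATGNAA on both strands. The window searched was 250 bases before to 50 after each start site listed in RefSeq (GRCh38.p14), so a gene can have more than 1 window. Of the 38 genes, 31 matched an entry. The core occurred in 12 of these 31 genes (38.7%), against 1217 of 27305 genes with a window (4.46%). The genes found were ASNS, ATF3, CEBPG, CHAC1, SLC3A2 and the 7 synthetase genes AARS, CARS, GARS, IARS, MARS, NARS and TARS. The 38 genes were listed partly for what is known of ATF4, so this share is a description of the list. A second motif, the cAMP response element TGACGTCA, occurred in 1 of the 31 genes (3.23%), PPP1R15A, against 2.25% of genes. The following stretches are examples with the core, from regulators, an enzyme, a transporter and a synthetase of the list, and the last one, from PPP1R15A, is shown for the cAMP response element. They run 5′ to 3′ on the strand of the gene, with the matched letters in capitals.
ASNS (chr7:97872458-97872487, minus strand): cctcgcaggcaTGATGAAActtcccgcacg
CEBPG (chr19:33374060-33374089, plus strand): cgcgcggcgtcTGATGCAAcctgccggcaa
CHAC1 (chr15:40953251-40953280, plus strand): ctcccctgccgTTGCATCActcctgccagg
SLC3A2 (chr11:62881725-62881748, plus strand): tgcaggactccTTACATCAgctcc
MARS (chr12:57488053-57488082, plus strand): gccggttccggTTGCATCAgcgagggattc
PPP1R15A (chr19:48872352-48872381, plus strand): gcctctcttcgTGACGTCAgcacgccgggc
ASNS and CEBPG hold the core as written, and CHAC1, SLC3A2 and MARS hold its reverse complement. Counted with the start site of the window as 1, the first matched base lies at -68 in ASNS, -42 in CEBPG, -209 in CHAC1, 38 in SLC3A2, -4 in MARS and -58 in PPP1R15A. ASNS, CEBPG and SLC3A2 also have windows at other start sites, which do not hold the core. The SLC3A2 stretch is shorter because its window ends there. A match of letters does not show that a factor binds there. The 12 genes with the core had median log2 fold changes of 0.03 and -0.07 after SETD2 and hnRNP L depletion, and the 19 genes with a window but without the core had 0.01 and -0.12. SLC3A2 was the only gene with the core to pass the test after hnRNP L depletion, and the other 4 genes that passed (SLC38A2, ALDH18A1, SESN2 and DDIT4) hold no such letters in the window. Over all tested genes 2.72% passed as higher and 8.48% as lower there. Letters outside the windows were not searched, and 7 of the 38 genes had no window.

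Differences were tested with limma on log2(TPM + 0.5) over the 16300 genes whose mean TPM reached 0.5, with p-values adjusted by the Benjamini-Hochberg method over all of them. A gene passed at an adjusted p under 0.05, and was called when its fold change was also above 1.5. After SETD2 depletion 0 of the 38 genes passed in limma, against 0.104% of all tested genes that passed and 0.104% that were called. At an unadjusted p under 0.05 there were 6 of the 38, against 2139 of the 16300 tested genes. The estimates of all 38 lay within 1.5-fold of scramble and their 95% intervals within 2-fold. The median log2 fold change was 0.01, the same as over all tested genes. Both SETD2 siRNA libraries lay above both scramble libraries for 6 genes, against 22.9% of all tested genes, and below them for 6 genes, against 20.6%.

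After hnRNP L depletion 1 of the 38 genes passed as higher (DDIT4), against 2.72% of all tested genes, and 4 passed as lower (SLC38A2, SLC3A2, ALDH18A1 and SESN2), against 8.48%. None of the 38 was called as higher, against 1.75% of all tested genes, and 1 was called as lower (SLC38A2), against 5.01%. An unadjusted p under 0.05 was reached by 12 of the 38, against 4630 of the 16300 tested genes. The median log2 fold change was -0.08, equal to that of all tested genes. Both hnRNP L siRNA libraries lay above both scramble libraries for 8 genes, against 18.8% of all tested genes, and below them for 14 genes, against 37.8%. Among all called genes 74.0% were lower, a share that was 54.7% with median-ratio scaling, 53.2% with quantile normalization and 80.4% without the mitochondrially encoded genes. The median of the 38 genes was 0.01 with median-ratio scaling, against 0.005 over all tested genes. None of the 38 passed in this comparison when scramble library 1 or either hnRNP L siRNA library was left out, or with no filter on low values.

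In the direct comparison of hnRNP L with SETD2 depletion, 0 of the 38 genes passed as higher in limma, against 2.77% of all tested genes, and 2 passed as lower (SESN2 and SLC38A2), against 7.99%. None was called as higher, against 2.15%, and 1 was called as lower (SESN2), against 4.69%. An unadjusted p under 0.05 was reached by 9 of the 38, against 4648 of the 16300 tested genes. The hnRNP L siRNA libraries both lay above the SETD2 siRNA libraries for 10 genes, against 18.6% of all tested genes, and below them for 20 genes, against 41.2%. The median was -0.10 for the 38 genes and for all tested genes. Among all called genes the lower share was 68.6%, and 51.0% with median-ratio scaling. None of the 38 passed when any SETD2 or hnRNP L siRNA library was left out, or with no filter. Both comparisons with scramble use the same scramble libraries, so their values are set side by side below and are not independent.

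**Figure D1:**
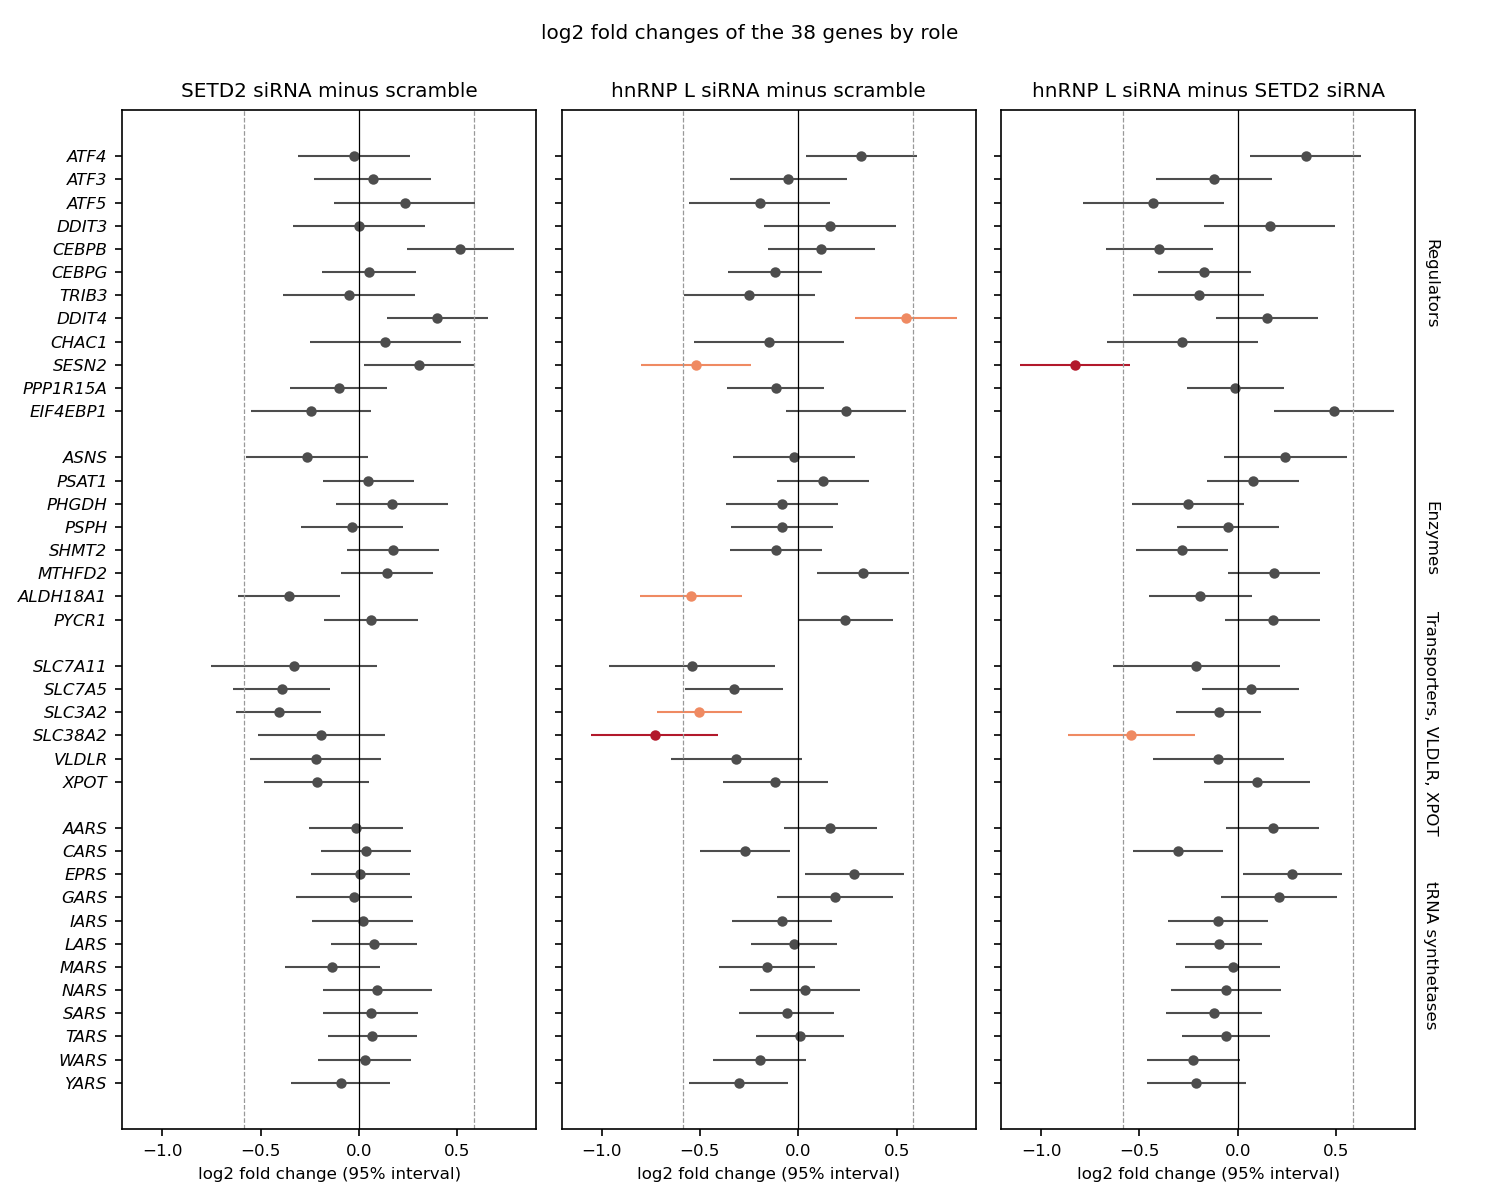
The log2 fold change of each of the 38 genes (x axis) is plotted by role for the 3 comparisons, with the 95% interval from limma as a line and 1.5-fold marked by dashed lines. Orange points passed the adjusted p and red points were also called: none after SETD2 depletion, 5 passing genes after hnRNP L depletion with SLC38A2 red, and SESN2 red and SLC38A2 orange between both depletions. Over all tested genes 2.72% passed as higher and 8.48% as lower after hnRNP L depletion, and 7.99% as lower between both depletions.

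The regulators are 12 genes. After SETD2 depletion 0 of them passed in limma, and 3 had an unadjusted p under 0.05, against 2139 of the 16300 tested genes. After hnRNP L depletion 2 passed, DDIT4 as higher, against 2.72% of all tested genes, and SESN2 as lower, against 8.48%. The median log2 fold changes of the 12 were 0.06 and -0.08. The second was 0.02 with median-ratio scaling, so the group as a whole had no direction that held under each scaling. ATF4, the central transcription factor (chromosome 22, 39519695 to 39522683, GRCh38), was the most abundant of the 38 genes by mean TPM over the 6 libraries. It had 547 and 686 TPM with scramble siRNA, 603 and 600.5 with SETD2 siRNA, and 793 and 738 with hnRNP L siRNA. The hnRNP L siRNA libraries were the highest of the 6, and the SETD2 siRNA libraries lay between the scramble libraries. The log2 fold change of ATF4 was -0.03 ± 0.12 (SE) after SETD2 depletion (limma adjusted p 0.951) and 0.32 ± 0.12 after hnRNP L depletion (adjusted p 0.133), with a 95% interval of 0.04 to 0.60. ATF4 passed in the second comparison in 1 of 18 alternatives, without scramble library 2. Between hnRNP L and SETD2 depletion its log2 difference was 0.35 ± 0.12 (adjusted p 0.109), which passed in 5 of 16 alternatives, among them quantile normalization and the rescaling without mitochondrially encoded genes. The table also holds 4 ATF4 pseudogenes, none above 2.71 TPM in any library.

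DDIT3, which encodes the stress-induced factor CHOP, had 15.8 and 21.1 TPM with scramble siRNA, 18.2 and 18.3 with SETD2 siRNA, and 19.2 and 22.0 with hnRNP L siRNA. Both depletions overlapped with scramble. Its log2 fold change was 0.00 ± 0.15 (SE) after SETD2 depletion (95% interval -0.34 to 0.33, limma adjusted p 1.00) and 0.16 ± 0.15 after hnRNP L depletion (-0.17 to 0.50, adjusted p 0.514). DDIT3 and MARS overlap on opposite strands of chromosome 12. Whether the libraries keep strand is not given in the sources used here, so reads from their shared part may not be told apart. ATF3, another stress-induced factor, had log2 fold changes of 0.07 and -0.05 after SETD2 and hnRNP L depletion, and its TPM ranged from 77.2 to 100.1 over the 6 libraries. ATF5, which like ATF4 is controlled by upstream open reading frames, had 0.23 and -0.20.

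CEBPB and CEBPG encode C/EBP partners of ATF4. CEBPB had 7.06 and 6.67 TPM with scramble siRNA, 9.95 and 10.1 with SETD2 siRNA, and 7.20 and 7.78 with hnRNP L siRNA. Both SETD2 siRNA libraries stood above the other 4 libraries. The log2 fold change of CEBPB after SETD2 depletion, 0.52 ± 0.12 (SE, 95% interval 0.25 to 0.79), was the largest of the 38 genes in that comparison and did not pass (limma adjusted p 0.184, unadjusted p 0.0020). It had 0.12 after hnRNP L depletion. CEBPG had 0.05 and -0.12.

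TRIB3, a pseudokinase that binds ATF4 and dampens its activity, had 10.9 and 14.7 TPM with scramble siRNA, 12.01 and 12.44 with SETD2 siRNA, and 10.9 and 10.3 with hnRNP L siRNA. Its log2 fold changes were -0.05 ± 0.15 (SE, limma adjusted p 0.909) and -0.25 ± 0.15 (adjusted p 0.304). CHAC1, an enzyme that breaks down glutathione, was the lowest of the 38 genes by mean TPM, at 2.31 over the 6 libraries. CHAC1 had 2.18 and 2.44 TPM with scramble siRNA, 2.66 and 2.50 with SETD2 siRNA, and 2.24 and 1.84 with hnRNP L siRNA. Its log2 fold changes were 0.13 ± 0.17 (adjusted p 0.764) and -0.15 ± 0.17 (adjusted p 0.607), and at this level the log2(TPM + 0.5) scale understates a change. DDIT3, TRIB3 and CHAC1 passed in none of the alternatives of any comparison.

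SESN2 (chromosome 1, 28259518 to 28282491) encodes sestrin 2, a leucine-binding protein that restrains mTORC1. It had 17.2 and 20.7 TPM with scramble siRNA, 23.3 and 23.8 with SETD2 siRNA, and 13.7 and 12.4 with hnRNP L siRNA. The SETD2 siRNA libraries were the highest of the 6 and the hnRNP L siRNA libraries the lowest, with no overlap between any of the groups. SESN2 was called as lower in hnRNP L than in SETD2 depletion, with a log2 difference of -0.83 ± 0.12 (SE, 95% interval -1.11 to -0.55, limma adjusted p 0.0073). Against scramble its log2 fold change was 0.31 ± 0.12 after SETD2 depletion (adjusted p 0.340), and it fell by 0.52 ± 0.12 on the log2 scale after hnRNP L depletion (adjusted p 0.0322). The call between both depletions was kept in 11 of 16 alternatives. It was lost without SETD2 siRNA library 2 (adjusted p 0.0740) or 3 (0.0791) and without hnRNP L siRNA library 1 (0.0608) or 2 (0.0666), with log2 differences of -0.90 to -0.75, and with no filter. The fall of SESN2 against scramble passed in 6 of 18 alternatives and in none of the 6 that leave out a library, where the adjusted p ran from 0.0560 to 0.177.

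DDIT4 (chromosome 10, 72273919 to 72276036) encodes REDD1, another inhibitor of mTORC1. It had 125.9 and 142 TPM with scramble siRNA, 168.5 and 184 with SETD2 siRNA, and 182 and 210.2 with hnRNP L siRNA. Both scramble libraries lay below the other 4. DDIT4 was the only one of the 38 genes that passed as higher after hnRNP L depletion, with a log2 fold change of 0.55 ± 0.11 (SE, 95% interval 0.29 to 0.81, limma adjusted p 0.0207), a fold of 1.46. After SETD2 depletion it had 0.40 ± 0.11 (adjusted p 0.230), and the difference between both depletions was 0.15 ± 0.11 (adjusted p 0.431). With median-ratio scaling MTHFD2, PYCR1 and EPRS passed as higher beside it. The rise of DDIT4 passed in 10 of 18 alternatives, and not with no filter, with only the compared groups in the fit or with no variance trend. It did not pass without scramble library 1 (adjusted p 0.0880), SETD2 siRNA library 2 (0.0517) or 3 (0.0519), or hnRNP L siRNA library 1 (0.0961) or 2 (0.151).

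PPP1R15A encodes GADD34, which brings a phosphatase to eIF2alpha. Its log2 fold changes were -0.10 and -0.12 after SETD2 and hnRNP L depletion. EIF4EBP1, a repressor of cap-dependent translation, had 200.2 and 264 TPM with scramble siRNA, 198 and 191 with SETD2 siRNA, and 284 and 262 with hnRNP L siRNA. EIF4EBP1 had a log2 difference of 0.49 ± 0.13 (SE) between hnRNP L and SETD2 depletion, which missed the threshold in limma (adjusted p 0.0513) and passed in 9 of 16 alternatives.

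**Figure D2:**
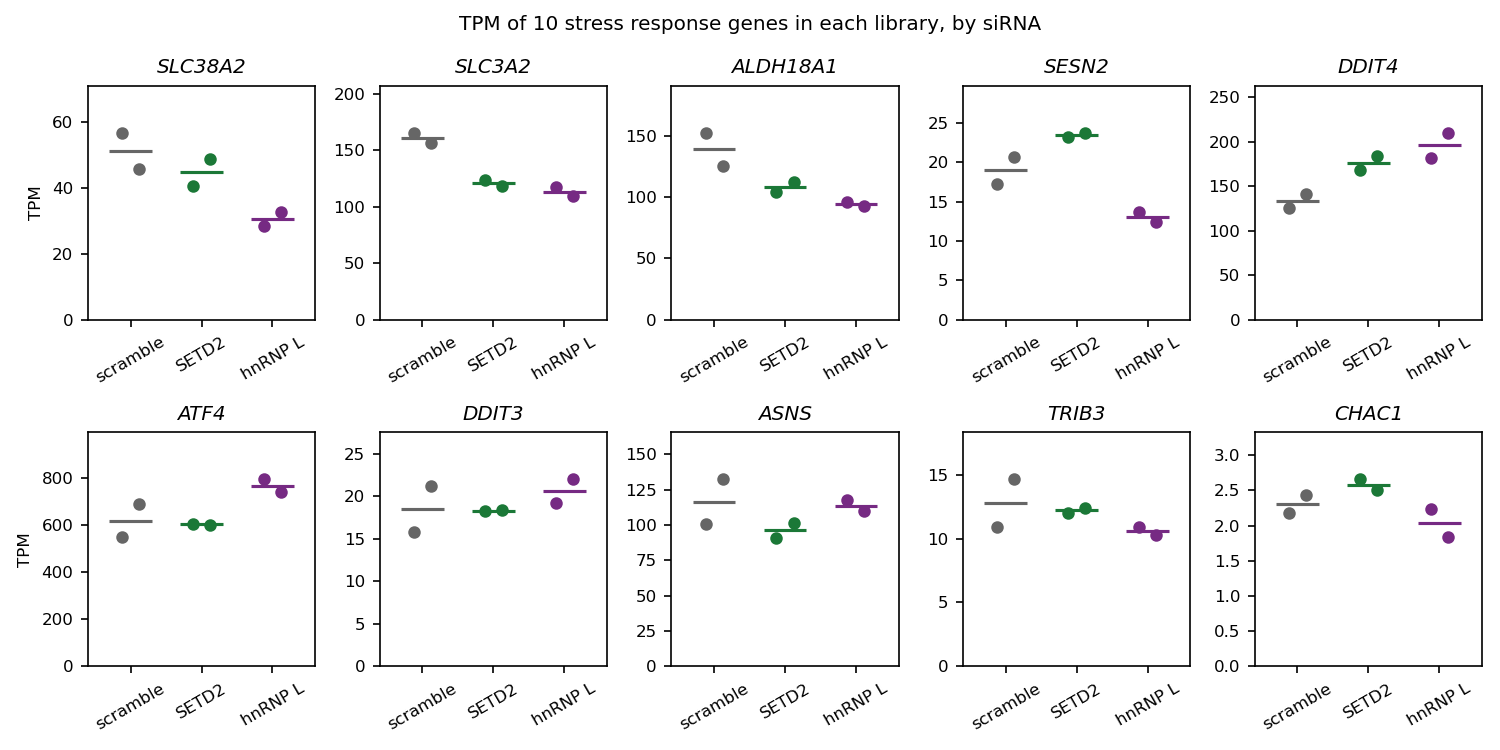
TPM (y axis, from 0) of 10 genes is plotted in each library, with 1 dot per library, a bar at the mean of the 2 libraries, and the siRNA on the x axis. The upper row holds the 5 genes that passed after hnRNP L depletion, with SLC38A2 at 28.4 and 32.7 TPM there against 56.7 and 45.7 with scramble siRNA, and the lower row holds ATF4, DDIT3, ASNS, TRIB3 and CHAC1, which did not pass.

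Of the 8 enzyme genes, 0 passed in limma after SETD2 depletion. An unadjusted p under 0.05 was reached there by 1, against 2139 of the 16300 tested genes. After hnRNP L depletion 1 passed, ALDH18A1 as lower, against 8.48% of all tested genes. The median log2 fold changes of the 8 were 0.05 and -0.05, and the second was 0.05 with median-ratio scaling. ASNS, asparagine synthetase, had 100.6 and 132 TPM with scramble siRNA, 90.7 and 102 with SETD2 siRNA, and 118 and 109.9 with hnRNP L siRNA. The groups overlapped in both comparisons with scramble. The log2 fold change of ASNS was -0.26 ± 0.14 (SE) after SETD2 depletion (95% interval -0.58 to 0.05, limma adjusted p 0.440) and -0.02 ± 0.14 after hnRNP L depletion (-0.33 to 0.29, adjusted p 0.939). ASNS overlaps 2 other annotated genes, and 4 pseudogenes of its name reach at most 5.13 TPM.

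PHGDH, which catalyses the first step of serine synthesis, was the second most abundant of the 38 genes after ATF4, at 424 and 541 TPM with scramble siRNA. Its log2 fold changes were 0.17 and -0.08 after SETD2 and hnRNP L depletion. PSAT1 had 0.05 and 0.12, and PSPH, which completes the pathway, had -0.03 and -0.08. SHMT2, the mitochondrial enzyme that splits serine into glycine and a one-carbon unit, had 0.17 and -0.11. MTHFD2, the next mitochondrial folate enzyme, had 117 and 128 TPM with scramble siRNA, 127 and 144 with SETD2 siRNA, and 156 and 152 with hnRNP L siRNA. Both hnRNP L siRNA libraries lay above the other 4 for MTHFD2, and its log2 fold change of 0.33 ± 0.10 (SE) did not pass in limma (adjusted p 0.0750), though it passed in 3 of 18 alternatives.

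ALDH18A1 and PYCR1 encode the first and the last enzyme of proline synthesis from glutamate. ALDH18A1 lies on chromosome 10 from 95605941 to 95656711. It had 152.5 and 125.4 TPM with scramble siRNA, 104 and 112 with SETD2 siRNA, and 96.2 and 93.0 with hnRNP L siRNA. Both scramble libraries lay above the other 4. It fell by 0.55 ± 0.11 (SE) on the log2 scale after hnRNP L depletion (95% interval -0.81 to -0.28, limma adjusted p 0.0218), and had -0.35 ± 0.11 after SETD2 depletion (adjusted p 0.264). The fall passed in 9 of 18 alternatives and not with median-ratio scaling (adjusted p 0.0537). Nor did it pass with no filter, with only the compared groups in the fit or with no variance trend. It also did not pass without scramble library 1 (0.0744), SETD2 siRNA library 2 (0.0537) or 3 (0.0537), or hnRNP L siRNA library 1 (0.143) or 2 (0.133). PYCR1 had 0.06 ± 0.11 and 0.24 ± 0.11 after SETD2 and hnRNP L depletion (adjusted p 0.836 and 0.178).

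The transporter group holds 4 amino acid transporter genes with the lipoprotein receptor gene VLDLR and the tRNA exportin gene XPOT. Their summed TPM was 388 and 356 in the scramble libraries, 285 and 307 in the SETD2 siRNA libraries, and 279.7 and 279.8 in the hnRNP L siRNA libraries. The scramble libraries were the highest, and scramble library 1 was the higher of these. The group's median log2 difference from the scramble mean was 0.09 in scramble library 1 and -0.09 in scramble library 2. For the 38 genes it was -0.08 and 0.08, so the group ran opposite to the list between the scramble libraries. All 6 genes had a log2 fold change below 0 with either depletion, under each of the 4 scalings of the libraries. The medians were -0.27 and -0.42, and the second was -0.32 with median-ratio scaling. After SETD2 depletion 0 of the 6 passed in limma, and 2 had an unadjusted p under 0.05, against 2139 of the 16300 tested genes. After hnRNP L depletion 2 passed as lower, SLC38A2 and SLC3A2, against 8.48% of all tested genes. Both siRNA libraries lay below both scramble libraries for 4 of the 6 after SETD2 depletion, against 20.6% of all tested genes, and for all 6 after hnRNP L depletion, against 37.8%. As these are bulk samples, fewer cells of a kind and less RNA per cell cannot be told apart.

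SLC38A2 (chromosome 12, 46358188 to 46372773) encodes SNAT2, a sodium-coupled transporter of neutral amino acids whose RNA is known to rise when amino acids run short. It had 56.7 and 45.7 TPM with scramble siRNA, 40.7 and 48.8 with SETD2 siRNA, and 28.4 and 32.7 with hnRNP L siRNA. The hnRNP L siRNA libraries lay below all others, while the scramble and SETD2 siRNA libraries overlapped. SLC38A2 fell by 0.73 ± 0.14 (SE) on the log2 scale after hnRNP L depletion, with a 95% interval of -1.05 to -0.41 and a limma adjusted p of 0.0166. Its log2 fold change was -0.19 ± 0.14 after SETD2 depletion (-0.51 to 0.13, adjusted p 0.590), and the direct difference between hnRNP L and SETD2 depletion was -0.54 ± 0.14 (adjusted p 0.0454). The call against scramble was kept in 14 of 18 alternatives, with log2 fold changes from -0.88 to -0.58 over all 18. It was lost without scramble library 1 (adjusted p 0.0940), without hnRNP L siRNA library 1 (0.150) or 2 (0.0742), and with no filter on low values. The difference from SETD2 depletion passed in 7 of 16 alternatives and in none of the other scalings. It was lost without SETD2 siRNA library 2 (0.108) or 3 (0.257) and without hnRNP L siRNA library 1 (0.278) or 2 (0.117).

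SLC3A2 (chromosome 11, 62856004 to 62888880) encodes the heavy chain that carries several amino acid transporters, the products of SLC7A5 and SLC7A11 among them, to the cell surface. It had 165 and 156 TPM with scramble siRNA, 124 and 118 with SETD2 siRNA, and 117 and 109.3 with hnRNP L siRNA. Both scramble libraries lay above the other 4. SLC3A2 fell by 0.50 ± 0.09 (SE) on the log2 scale after hnRNP L depletion (95% interval -0.72 to -0.29, limma adjusted p 0.0146), a fold of 0.705. Its log2 fold change after SETD2 depletion was -0.41 ± 0.09 (adjusted p 0.184), and the difference between both depletions was -0.10 ± 0.09 (95% interval -0.31 to 0.12, adjusted p 0.550). The fall passed in 14 of 18 alternatives. It did not pass without scramble library 1 (adjusted p 0.0576) or without hnRNP L siRNA library 1 (0.108) or 2 (0.121).

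SLC7A5, the light chain LAT1 that imports large neutral amino acids such as leucine, had 80.9 and 70.5 TPM with scramble siRNA, 55.0 and 59.9 with SETD2 siRNA, and 62.3 and 57.9 with hnRNP L siRNA. Both scramble libraries were above the other 4, and the log2 fold changes of -0.39 ± 0.11 and -0.33 ± 0.11 (SE) did not pass in limma (adjusted p 0.226 and 0.0889). SLC7A11, the cystine importer, had 3.91 and 2.83 TPM with scramble siRNA, 2.33 and 2.78 with SETD2 siRNA, and 2.09 and 2.18 with hnRNP L siRNA. Its log2 fold change of -0.54 ± 0.19 after hnRNP L depletion was close in size to that of SLC3A2 but had an SE of 0.19 against 0.09, and did not pass (adjusted p 0.0970). VLDLR had -0.22 and -0.32 after SETD2 and hnRNP L depletion, and XPOT, which carries tRNAs out of the nucleus, had -0.22 and -0.12.

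**Figure D3:**
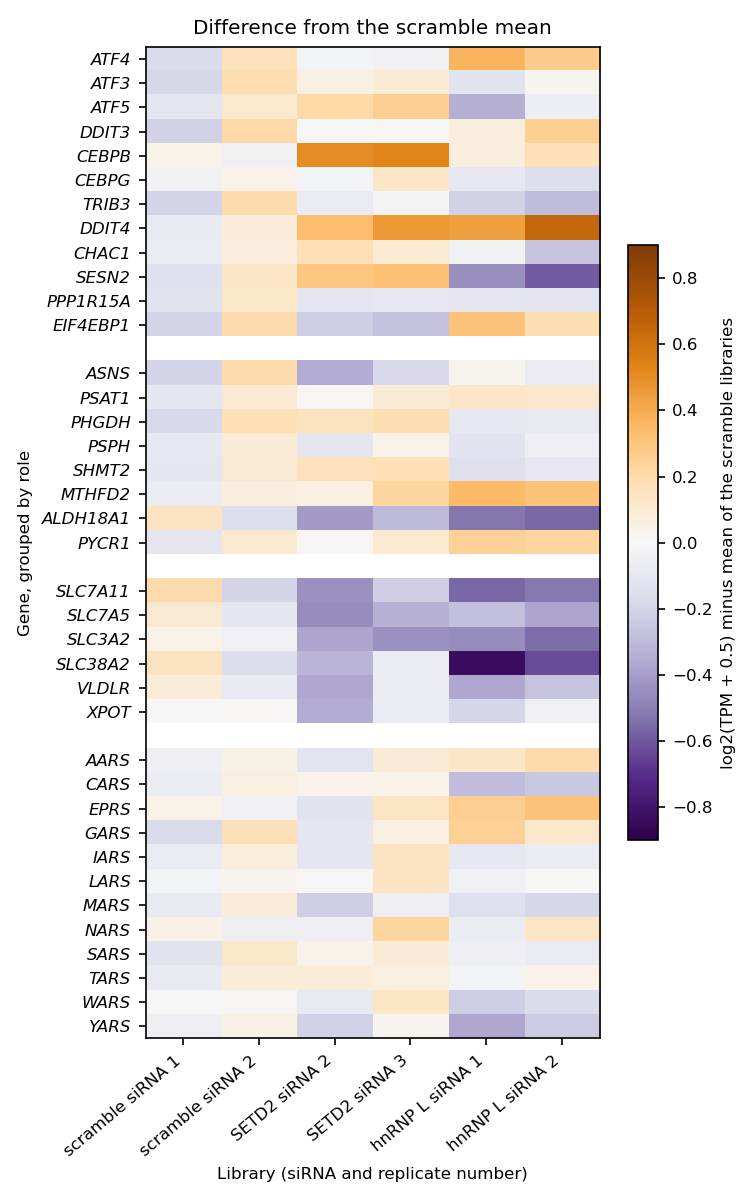
Each cell is the log2(TPM + 0.5) of 1 gene (rows, grouped by role) in 1 library (columns) minus the mean of the scramble libraries, from purple (lower) through white to brown (higher). All 6 transporter genes have a log2 fold change below 0 after SETD2 and hnRNP L depletion, against 7731 and 9974 of the 16300 tested genes. Single cells such as XPOT in hnRNP L siRNA library 2 are close to white. The synthetase genes have log2 fold changes between -0.14 and 0.09 after SETD2 depletion and between -0.30 and 0.28 after hnRNP L depletion.

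The 12 aminoacyl-tRNA synthetase genes, whose products join amino acids to their tRNAs, were expressed from 23.6 TPM (CARS, cysteine) to 298 TPM (TARS, threonine) in single libraries. None of the 12 passed in limma in any of the 3 comparisons. An unadjusted p under 0.05 was reached by 0 after SETD2 depletion, 3 after hnRNP L depletion and 2 between both depletions. Over the 16300 tested genes it was reached by 2139, 4630 and 4648. After SETD2 depletion the libraries overlapped with scramble for all 12, against 9205 of the 16300 tested genes. The log2 fold changes of the 12 ran from -0.14 (MARS, methionine) to 0.09 (NARS, asparagine). After hnRNP L depletion they ran from -0.30 (YARS, tyrosine) to 0.28 (EPRS, glutamate and proline). YARS had 221 and 237 TPM with scramble siRNA and 177 and 194 with hnRNP L siRNA, groups that did not overlap, with an adjusted p of 0.115. EPRS had 83.9 and 79.9 TPM with scramble siRNA and 98.1 and 101.5 with hnRNP L siRNA, and here the hnRNP L siRNA libraries were the higher ones (adjusted p 0.132). CARS had a log2 fold change of -0.27 after hnRNP L depletion, and the lowest adjusted p of the group between both depletions (log2 difference -0.31, adjusted p 0.0866).

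The other synthetase genes lay between these values after hnRNP L depletion. GARS (glycine) had a log2 fold change of 0.18, AARS (alanine) 0.16, NARS 0.03 and TARS 0.01. LARS (leucine) had -0.02, SARS (serine) -0.06, IARS (isoleucine) -0.08, MARS -0.16 and WARS (tryptophan) -0.20. The group's medians were 0.02 and -0.04 after SETD2 and hnRNP L depletion, and the sign changed with the scaling in both comparisons, to -0.07 without the mitochondrially encoded genes in the first and 0.06 with median-ratio scaling in the second. In the rescaling without the mitochondrially encoded genes CARS and YARS passed as lower after hnRNP L depletion, and with median-ratio scaling EPRS passed as higher.

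Further genes of the pathway were read from 7 lists of 125 genes, of which 124 were found in the table and 113 were tested. After SETD2 depletion 0 of the 113 passed in limma, with a median log2 fold change of 0.01. An unadjusted p under 0.05 was reached by 17, against 2139 of the 16300 tested genes. After hnRNP L depletion 2 passed as higher, against 2.72% of all tested genes, and 11 as lower, against 8.48%. Of the latter 5 were called, against 5.01%, and the median was -0.09, against -0.08 over all tested genes. Between both depletions 3 passed as higher in hnRNP L depletion (HSPA5, MTHFD1L and GPT2), against 2.77%, and 10 as lower, against 7.99%, 3 of them called, against 4.69%. HSPA5, MTHFD1L and GPT2 did not pass there without any single SETD2 or hnRNP L siRNA library. The 4 eIF2alpha kinases stand upstream of ATF4, and none passed. Their log2 fold changes after SETD2 and hnRNP L depletion were -0.02 and -0.17 for EIF2AK1 (HRI), -0.08 and -0.41 for EIF2AK2 (PKR, which senses double-stranded RNA), -0.31 and -0.48 for EIF2AK3 (PERK, in the endoplasmic reticulum) and 0.05 and 0.09 for EIF2AK4 (GCN2, which senses uncharged tRNA). The lowest adjusted p among them was 0.0553, for EIF2AK3 after hnRNP L depletion. Over all 17 genes of the kinase, eIF2 and eIF2B list 1 passed, as lower after hnRNP L depletion, against 8.48% of all tested genes. It was PPP1R15B, a partner of the eIF2alpha phosphatase (-0.54, limma adjusted p 0.0209), which did not pass without any single scramble or hnRNP L siRNA library.

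Among 28 tested further ATF4-linked genes, 1 passed as higher (GPT2) after hnRNP L depletion, against 2.72% of all tested genes. As lower 5 passed (NUPR1, SLC1A4, SLC1A5, JDP2 and SLC6A9), against 8.48%, and NUPR1 and SLC1A4 were called, against 5.01%. NUPR1, a small stress-induced nuclear protein, had 9.43 and 12.1 TPM with scramble siRNA, 9.57 and 9.30 with SETD2 siRNA, and 5.33 and 5.26 with hnRNP L siRNA. Its hnRNP L siRNA libraries lay below the other 4, with a log2 fold change of -0.95 ± 0.14 (SE, limma adjusted p 0.00677) against scramble and -0.78 ± 0.14 (adjusted p 0.0134) against SETD2 depletion. SLC1A4, a transporter of alanine, serine, cysteine and threonine, had 4.03 and 3.95 TPM with scramble siRNA, 2.82 and 2.77 with SETD2 siRNA, and 1.88 and 2.17 with hnRNP L siRNA, with log2 fold changes of -0.45 (adjusted p 0.278) and -0.83 ± 0.15 (adjusted p 0.0135). NUPR1 did not pass against scramble without hnRNP L siRNA library 1 or 2, nor against SETD2 depletion without any single SETD2 or hnRNP L siRNA library. SLC1A4 and GPT2 did not pass against scramble without any single scramble or hnRNP L siRNA library, SLC1A5 without either hnRNP L siRNA library, and JDP2 and SLC6A9 without any single one of the 6 libraries. JDP2 passed in 8 of 18 alternatives and SLC6A9 in 5, the latter in none of the other scalings.

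Endoplasmic reticulum chaperones and targets of ATF6 or XBP1, which belong to the neighbouring unfolded protein response, had medians of -0.19 and -0.23 over 20 genes. None passed after SETD2 depletion in limma, and 3 had an unadjusted p under 0.05, against 2139 of the 16300 tested genes. After hnRNP L depletion 3 passed as lower (EDEM1, SEL1L and ATF6), against 8.48% of all tested genes. EDEM1 and SEL1L, both factors of the degradation of misfolded proteins, were called, against 5.01%. Their log2 fold changes were -0.67 and -0.61 (limma adjusted p 0.0133 and 0.0365). EDEM1 did not pass without scramble library 1 or either hnRNP L siRNA library, and SEL1L did not pass without any single one of the 6 libraries. ATF6 passed without scramble library 2 and in no other setting that left out a library. Of 16 sensors of amino acids upstream of mTORC1, 1 was called as lower after hnRNP L depletion, against 5.01% of all tested genes. It was the lysosomal arginine sensor SLC38A9 (-0.67, limma adjusted p 0.0101), which did not pass without scramble library 1 or either hnRNP L siRNA library. RRAGB, a Rag GTPase, was called as lower in hnRNP L than in SETD2 depletion (-0.88, adjusted p 0.0175) and was lost without SETD2 siRNA library 2 or 3 or hnRNP L siRNA library 1.

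After hnRNP L depletion the 11 other cytosolic synthetase and scaffold genes gave 1 gene that passed as higher, EEF1E1, against 2.72% of all tested genes. The 16 mitochondrial synthetase genes gave 1 that passed as lower, against 8.48%. The latter is CARS2, the mitochondrial cysteinyl-tRNA synthetase, which was also called as lower in hnRNP L than in SETD2 depletion, at a log2 difference of -0.75 (limma adjusted p 0.0103). That call was lost without any single SETD2 or hnRNP L siRNA library, and against scramble CARS2 did not pass without any single one of the 6 libraries. EEF1E1 did not pass without scramble library 1 or either hnRNP L siRNA library. Of 14 genes of the response to double-stranded RNA and interferon, 5 were tested and 0 passed against scramble in either comparison in limma, with 0 at an unadjusted p under 0.05 in each.

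**Figure D4:**
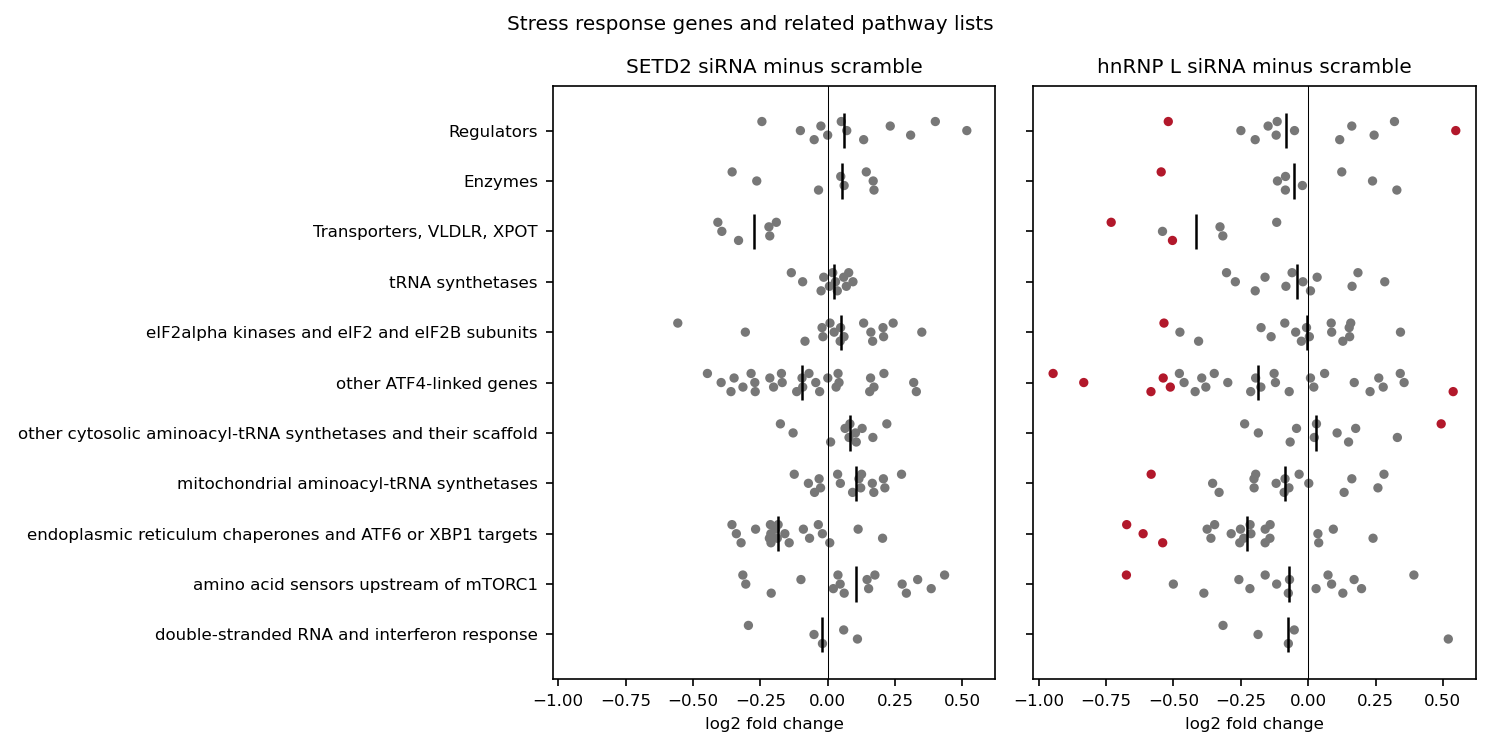
Each point is the log2 fold change (x axis) of 1 tested gene, by list, for SETD2 and hnRNP L depletion against scramble. Black lines are list medians and red points passed the adjusted p: 0 after SETD2 depletion, and 5 of the 38 genes with 13 of the 113 further genes after hnRNP L depletion. Over all tested genes 0.104% passed after SETD2 depletion, and 2.72% as higher and 8.48% as lower after hnRNP L depletion.

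Of the 38 genes, 20 overlap another annotated gene, 19 of them one on the opposite strand, and 13 have a pseudogene of their name in the table, between which reads can be divided. SESN2, DDIT4, ALDH18A1 and SLC3A2 overlap none, and SLC38A2 overlaps 1 gene on the opposite strand. The reads behind a gene cannot be counted from TPM, and the differences that did not pass in limma are not shown to be absent.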

How the data were processed

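The data are RNA-seq libraries of 293T cells, 2 for each of the scramble, SETD2 and hnRNP L siRNAs. The ChIP-seq samples were not analysed here. Per the study's methods, paired reads were aligned by the authors with STAR 2.6.1c to hg38 and Ensembl release 96 gene models, and the deposited TPM per gene came from RSEM 1.3.0. The libraries had been depleted of ribosomal RNA and enriched for polyA. The authors tested differential expression with edgeR on protein-coding and lncRNA genes. At an FDR under 0.05 and a fold change above 1.5 they reported more changed genes after SETD2 depletion than were called here. The calls here were 17 over all tested genes and 60 among protein-coding and lncRNA genes. TPM are shares of a library, so a change in abundant transcripts, such as the mitochondrially encoded ones, moves all other values.

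Values were analysed as log2(TPM + 0.5), which understates fold changes of low genes. Genes of all biotypes with a mean TPM of at least 0.5 were tested (16300) using limma 3.58.1 (R 4.3.3). All 6 libraries entered 1 fit with a mean for each siRNA, and variances were moderated towards a trend with 5.74 prior degrees of freedom. P-values are two-sided and adjusted by Benjamini-Hochberg. With 2 libraries a group, exact permutation could not go below a p of 0.333 and was not used. The fit was tested on simulated data. Coordinates and biotypes are from GENCODE release 44 (GRCh38), matched by gene ID, and promoters from RefSeq. Python 3.11.15, pandas 2.3.3, NumPy 2.4.6 and Matplotlib 3.10.9 were used.

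The 38 genes and the further lists were chosen with earlier results of these data known. Values in every library are given for the genes called and, whatever their result, for ATF4, DDIT3, ASNS, CHAC1 and TRIB3. Of the further lists, the called genes and the 4 eIF2alpha kinases are named. The per-library values of further genes, and the names of uncalled genes of the further lists, were chosen after their values were seen. The alternatives changed the pseudocount (1 or 0.1), the filter (none, or a mean TPM of 1), the genes (protein-coding and lncRNA), the scaling (median-ratio, quantile, or TPM without the 37 mitochondrially encoded genes), the fit (only the compared groups, or no variance trend), the fold cut-off (none or 2) and the libraries (each left out in turn), and 1 added the replicate number as a block. The 18 alternatives of hnRNP L depletion against scramble also count a block with crossed replicate numbers, chosen after seeing the data. ALDH18A1, DDIT4, SESN2, SLC38A2 and SLC3A2 passed in it. A left-out library leaves 1 library in its group, which is assumed to vary like the others. No search for outlying libraries can be made in groups of 2.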

Additional observations from a re-analysis of the deposited data

How the results depend on the processing

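After SETD2 depletion 17 genes were called in all, and 1 with no filter, 27 at a mean TPM of at least 1, 60 among protein-coding and lncRNA genes, and 8 (without scramble library 1) to 38 (without scramble library 2) with a library left out. None of the 38 genes passed under any of these. Their median log2 fold change of 0.0125 was -0.0847 without mitochondrially encoded genes. After hnRNP L depletion 1102 genes were called, and 235 with no filter, 1826 with no fold cut-off, 291 at a fold above 2, and 172 (without hnRNP L library 1) to 821 with a library left out, 227 without hnRNP L library 2 and 363 without scramble library 1 among them. Of the 38 genes, 0 were called as higher, but 1 was with median-ratio scaling and with no fold cut-off, and 0 to 1 with a library left out. The 1 called as lower became 0 with no filter or at a fold above 2, 2 without mitochondrially encoded genes, 4 with no fold cut-off, and 0 to 2 with a library left out. The median of -0.0843 was 0.0144 with median-ratio scaling, and -0.193 (without scramble library 1) to -0.00368 (without scramble library 2) with a library left out. Between both depletions 1115 genes were called, and 186 with no filter, 1753 with no fold cut-off, 299 at a fold above 2, and 127 to 1006 with a library left out, and at most 230 where that was a SETD2 or hnRNP L siRNA library. Of the 38 genes 0 were called as higher, and 1 (EIF4EBP1) with median-ratio scaling. The 1 called as lower became 0 with no filter or at a fold above 2, 2 with no fold cut-off, and 0 to 1 with a library left out. The median of -0.0967 was 0.00920 with median-ratio scaling and -0.00689 with quantile normalization. Over all tested genes the median with median-ratio scaling was 0.0050 after hnRNP L depletion and -0.0031 between both depletions. Without mitochondrially encoded genes it was -0.0738 after SETD2 depletion. No called gene of the 38 or of the further lists changed direction, and the cause of these shifts was not tested beyond the settings themselves. TPM hold no counts, so the number of reads behind each gene could not be examined.

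The replicate numbers 1 and 2 occur with both scramble and hnRNP L siRNA. With the replicate block 715 genes were called after hnRNP L depletion, and 4 of the 38 genes passed, SESN2 no longer among them (adjusted p 0.0902). The numbers do not show a pairing, since the correlation across genes of the library 1 minus library 2 differences was -0.13. With crossed numbers, a setting chosen after seeing the data, 1406 genes were called.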
